A study of Mus musculus with 2 samples.

Results

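The mitochondrial genome of the mouse cerebral cortex is described here through all 37 annotated genes whose symbol starts with mt-, of 55536 genes measured. They are 2 ribosomal RNAs (rRNAs), 13 protein-coding genes and 22 transfer RNAs (tRNAs), and membership rests on the symbol alone. Each protein-coding gene is called a messenger here, although overlapping genes of 1 strand can share 1 RNA molecule. The animals were B6CASTF1/J females (C57BL/6J crossed with CAST/EiJ, first generation) aged 14 days, from The Jackson Laboratory, and the tissue was the cortex of the left hemisphere. Its total RNA (300 ng per library) was reduced in ribosomal RNA, mixed with synthetic ERCC spike-in transcripts and made into stranded libraries. There were 2 libraries of 1 group, labelled biological replicates 2 and 1, with separate tissue entries and the same donor entry. The tissue label of replicate 2 names a female, that of replicate 1 names 3 females, as does the label of the whole experiment, and the number of mice behind each library is not stated. A pool set against a single animal and 2 like samples cannot be told apart here. Without a second condition, the data give levels within this tissue, ratios between genes of a library, and the difference between replicate 2 and replicate 1.

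Mitochondria keep a small circular genome in many copies per cell. Both of its strands are transcribed into long precursors that run through many genes, and the tRNAs that lie between the other genes are cut out, which frees the rRNAs and messengers. All 13 messengers encode subunits of the machinery of oxidative phosphorylation: 7 belong to complex I (NADH dehydrogenase), 1 to complex III (cytochrome bc1), 3 to complex IV (cytochrome c oxidase) and 2 to complex V (ATP synthase). The other subunits of these complexes, and all of complex II, come from nuclear genes, so the complexes are built from the products of both genomes. Nuclear genes also supply the proteins that transcribe, cut, stabilise and translate mitochondrial RNA. Neurons depend on this machinery for most of their ATP, and the cortex of mice is still building synapses and myelin at this age.

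Neighbouring genes leave almost no room between them, from mt-Tf at chrM:1-68 to mt-Tp at chrM:15356-15422. Of the 36 junctions between neighbours in the annotation (assembly mm10), 12 abut without a base between them, 9 overlap and 15 have a gap, the longest of 32 bases. The first sequence shows such a junction, on the plus strand at chrM:2646-2780. It holds the end of mt-Rnr2 (the larger rRNA), the whole of mt-Tl1 (a leucine tRNA, in capitals) and the start of mt-Nd1 (a core subunit of complex I), with no base between them.
mt-Rnr2, mt-Tl1, mt-Nd1: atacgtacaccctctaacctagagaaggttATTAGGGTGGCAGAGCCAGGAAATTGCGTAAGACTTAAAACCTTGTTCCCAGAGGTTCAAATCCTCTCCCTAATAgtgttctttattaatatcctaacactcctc

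The largest overlap lies between both messengers of complex V, which share 43 bases at chrM:7927-7969 on the plus strand. Reads inside it belong to either gene. The capitals mark the start codon of mt-Atp6 (subunit a, part of the proton channel) and the stop codon of mt-Atp8 (a small membrane subunit). In complex I, mt-Nd4l and mt-Nd4 share 7 bases (in capitals, chrM:10154-10193). At chrM:13539-13578 the 3′ ends of mt-Nd5 and mt-Nd6, which lie on opposite strands, share 14 bases (in capitals, plus strand shown).
mt-Atp8 and mt-Atp6: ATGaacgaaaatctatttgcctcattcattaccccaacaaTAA
mt-Nd4l and mt-Nd4: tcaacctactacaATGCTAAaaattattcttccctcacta
mt-Nd5 and mt-Nd6: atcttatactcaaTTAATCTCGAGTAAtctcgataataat

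The codons at both ends of the messengers also vary. Of the 13 messengers, 9 start with ATG, and mt-Nd1 (GTG), mt-Nd2 (ATA), mt-Nd3 (ATT) and mt-Nd5 (ATC) start with another codon. At the other end, 8 close with TAA and 2 with TAG. The remaining 3, mt-Co3, mt-Nd4 and mt-Cytb, end on a single T past the last full codon, and addition of the poly(A) tail is known to complete such a stop codon. Their last bases, all on the plus strand, lie at chrM:9360-9390, chrM:11514-11544 and chrM:15258-15288, with the incomplete stop codon in capitals.
mt-Co3: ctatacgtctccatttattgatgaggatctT
mt-Nd4: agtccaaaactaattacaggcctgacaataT
mt-Cytb: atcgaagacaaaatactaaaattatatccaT

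A block of 7 pseudogenes on chromosome 1 repeats a stretch of the mitochondrial genome. It spans 4663 bases at chr1:24611535-24616197 on the minus strand, and 5 of its 7 transcripts match a mitochondrial messenger without a mismatch over the aligned length. Gm28661 is the copy of mt-Co2 (681 bases), Gm10925 of mt-Atp6 (678 bases), Gm28437 of mt-Co3 (783 bases), Gm10222 of mt-Nd4l (294 bases) and Gm28439 of the first 876 bases of mt-Nd4. The ends of mt-Co2 (chrM:7654-7696) and Gm28661 (chr1:24614885-24614924) show how little separates such a pair: the annotated copy ends before the stop codon, in capitals, and is otherwise identical.
mt-Co2: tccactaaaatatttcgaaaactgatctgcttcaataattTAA
Gm28661: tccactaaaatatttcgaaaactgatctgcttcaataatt

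The remaining 2 copies differ from the mitochondrial transcript at 1 aligned base each, in capitals in the windows below. Positions count from 1 at the 5′ end of the mitochondrial transcript, whose base comes first. Gm28438 carries T3C against mt-Nd3 over 345 aligned bases (chrM:9459-9481 and chr1:24613097-24613119). Gm29216 carries A1066T against mt-Co1 over 483 of its 492 bases, and the alignment starts at its base 10 (chrM:6390-6413 and chr1:24616165-24616188). Within the aligned stretch, a read that does not cover this base cannot be placed by its letters.
mt-Nd3: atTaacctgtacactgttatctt
Gm28438: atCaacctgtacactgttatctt
mt-Co1: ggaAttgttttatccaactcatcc
Gm29216: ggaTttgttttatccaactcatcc

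Genes received 32013997 expected counts in replicate 2 and 33362704 in replicate 1, and spike-ins took 0.361% and 0.359% of all counts. Expected counts are estimated reads per gene, and reads that match several genes are divided among them by estimation. Both libraries held all 6 listed markers of cortical excitatory neurons at 1 TPM or above, with a median of 50.3 TPM in replicate 2 and 53.2 TPM in replicate 1. TPM is the authors' relative transcript level, corrected for length. Markers of other cells and tissues differed between the libraries, with a gene called at an adjusted p under 0.05 in the exact binomial test used for all comparisons between them. Over all genes tested, 11.4% were called lower in replicate 2 and 8.88% higher. Of 7 myelin genes, 7 were called lower in replicate 2 (summed level 1277 TPM in replicate 2 and 2290 TPM in replicate 1), as were 5 of 6 striatal genes (140 and 219 TPM). All 5 choroid plexus genes (138 and 12.2 TPM), all 4 erythroid genes (901 and 589 TPM) and all 6 long noncoding RNAs kept in the nucleus (5602 and 4183 TPM) were called higher. Ttr alone made up 131 and 9.86 TPM of the choroid plexus sum, and 2 of these 5 genes reached 1 TPM in both libraries. Smaller differences were found in other cell types: 3 of 6 markers of excitatory neurons (median log2 ratio of replicate 2 over replicate 1 -0.14), 3 of 5 of astrocytes (-0.13) and 3 of 5 of microglia (-0.16) were called lower, and 1 astrocyte marker (Aqp4) higher. Of 4 interneuron and 3 endothelial markers, 0 were called. These smaller differences depended on the scaling. With library sizes from total gene counts or from spike-ins, 0 of 5 microglia markers were called. With either, 3 excitatory neuron markers were called lower and 1 higher, 3 astrocyte markers lower and 2 higher, and 1 interneuron marker higher. Over all genes, 6.06% or 6.51% were then called lower and 14.5% or 13.6% higher. No listed marker was at 0 in both libraries.

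Of all gene counts, mitochondrial genes held 6.62% in replicate 2 and 7.44% in replicate 1. The largest part lay in the 2 rRNAs, which form the core of the mitochondrial ribosome and took 78.4% of the mitochondrial counts in both libraries. The 13 messengers held 1.43% of all gene counts in replicate 2 and 1.61% in replicate 1. No count was assigned to a tRNA. Counted per length instead, the 37 genes made up 8.95% of all TPM in replicate 2 and 10.1% in replicate 1.

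The rRNAs stood far above every messenger. mt-Rnr2 (chrM:1094-2675) reached 40251 TPM in replicate 2 and 44951 TPM in replicate 1 (42601 ± 3323, SD, n = 2). mt-Rnr1 (chrM:70-1024), the smaller rRNA, reached 24681 TPM in replicate 2 and 28068 TPM in replicate 1 (26375 ± 2395, SD, n = 2). Both ribosomal subunits contain 1 copy of their RNA, yet the TPM of mt-Rnr2 was 1.63 times that of mt-Rnr1 in replicate 2 and 1.60 times in replicate 1 (0.69 ± 0.02 on the log2 scale, SD, n = 2). The summed TPM of the rRNAs was 2.64 times that of the 13 messengers in replicate 2 and 2.65 times in replicate 1. By counts per kilobase of annotated length, this ratio was 2.86 in replicate 2 and 2.87 in replicate 1. With the counts of the chromosome 1 copies added to the messengers, it was 1.73 and 1.74. Reduction of ribosomal RNA before sequencing may act on both rRNAs, and its efficiency was not tested. Ratios of the rRNAs therefore describe the libraries and not the tissue before depletion.

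**Figure D1:**
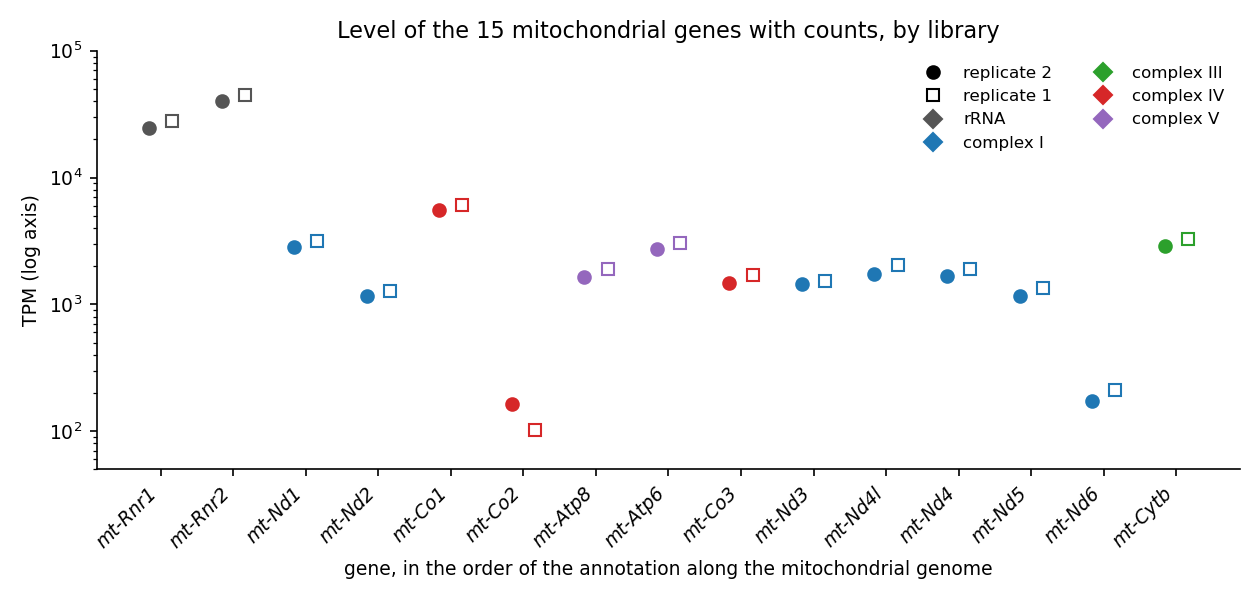
TPM (log axis) of the 2 rRNAs and 13 messengers in replicate 2 (filled circles) and replicate 1 (open squares), in the order of the annotation and coloured by complex. The rRNAs lie at 24681 TPM or more, 11 of the messengers between 1157 and 6123 TPM, and mt-Nd6 and mt-Co2 at 211 TPM or less.

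Among the 7 messengers of complex I, which carries the first step of the respiratory chain from NADH to ubiquinone, mt-Nd1 was the highest. mt-Nd1 had 2810 TPM in replicate 2 and 3171 TPM in replicate 1. mt-Nd4l, a small subunit of the proton-pumping arm, had 1720 TPM in replicate 2 and 2043 TPM in replicate 1, and mt-Nd4, of the same arm, had 1676 and 1890 TPM. Next came mt-Nd3, which sits at the joint of both arms, with 1441 TPM in replicate 2 and 1538 TPM in replicate 1. mt-Nd5, at the far end of the membrane arm, had 1168 TPM in replicate 2 and 1348 TPM in replicate 1, close to mt-Nd2, another pumping subunit, with 1157 and 1269 TPM.

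These 6 messengers, all from the heavy strand, stayed within a narrow band, while the seventh did not. mt-Nd6, the only messenger transcribed from the light strand, had 172 TPM in replicate 2 and 211 TPM in replicate 1. Its level was 0.104 times the median of the other 12 messengers in replicate 2 and 0.112 times in replicate 1 (log2 ratio -3.21 ± 0.07, SD, n = 2). mt-Nd1 exceeded mt-Nd6 by 4.03 in replicate 2 and 3.91 in replicate 1 on the log2 scale, although each complex holds 1 copy of both proteins. The precursor of the heavy strand runs antisense through the whole of mt-Nd6, and the strand setting of the counting is unknown, so reads of both strands cannot be told apart at this gene.

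mt-Cytb, the cytochrome b of complex III and its sole mitochondrial subunit, had 2896 TPM in replicate 2 and 3252 TPM in replicate 1 (3074 ± 251, SD, n = 2). In complex IV the messengers of the 3 core subunits were far apart. mt-Co1, the haem-bearing subunit, was the highest messenger by its own row, with 5537 TPM in replicate 2 and 6123 TPM in replicate 1. mt-Co3, a structural core subunit, had 1467 TPM in replicate 2 and 1697 TPM in replicate 1. mt-Co2, which takes electrons from cytochrome c, had 165 TPM in replicate 2 and 101 TPM in replicate 1, the lowest of all 13 messengers in both libraries and the only one higher in replicate 2. In complex V, mt-Atp6 had 2726 TPM in replicate 2 and 3020 TPM in replicate 1, and mt-Atp8 had 1634 and 1891 TPM.

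The order of the levels held in part. By mean TPM, mt-Cytb, mt-Nd1 and mt-Atp6 followed mt-Co1, with ranges over the libraries that overlapped from each to the next. Then mt-Nd4l, mt-Nd4, mt-Atp8, mt-Co3 and mt-Nd3 formed a second run of overlapping neighbours, and mt-Nd5 and mt-Nd2 overlapped as well. Ranges did not overlap between mt-Co1 and mt-Cytb, between mt-Atp6 and mt-Nd4l, between mt-Nd3 and mt-Nd5, or between mt-Nd2 and mt-Nd6. Within each library the same order was found, with 1 exception: mt-Nd4 lay above mt-Atp8 in replicate 2 and below it in replicate 1.

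The division of reads between mt-Co2 and its copy set the level of this gene. mt-Co2 was given 1978 expected counts in replicate 2 and 1274 in replicate 1, while Gm28661 was given 74497 and 88320. The mitochondrial row thus held 2.59% of the counts of the pair in replicate 2 and 1.42% in replicate 1. mt-Atp6 held 34.2% of the counts it shares with Gm10925 in replicate 2 and 34.4% in replicate 1 (the copy had 62602 and 71907 counts). mt-Co3 held 27.2% of the counts it shares with Gm28437 in replicate 2 and 28.3% in replicate 1 (the copy had 55163 and 63260 counts). For these 3 genes the copy was therefore listed above the mitochondrial gene in both libraries. In TPM, Gm28661 stood at 6229 in replicate 2 and 7071 in replicate 1, Gm10925 at 5262 and 5787, and Gm28437 at 3925 and 4310.

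Other copies were given fewer reads than their messenger, and 2 that are just as identical were given none or almost none. Gm28439, which repeats the first part of mt-Nd4, had 0 counts in both libraries, against 44039 counts for mt-Nd4 in replicate 2 and 51880 in replicate 1. Gm10222 had 0.1 counts in replicate 2 and 0 in replicate 1, against 6999 and 8681 for mt-Nd4l. Gm28438, with 1 mismatch, had 0 counts in both libraries, against 7373 counts for mt-Nd3 in replicate 2 and 8216 in replicate 1. Gm29216, with 1 mismatch in its aligned part, had 16064 counts in replicate 2 and 19790 in replicate 1, and mt-Co1 held 91.1% and 90.6% of that pair. Together the 7 copies took up 0.651% of the counts of replicate 2 and 0.729% of those of replicate 1. How many of these reads came from either place was not tested. A further 11 annotated genes hold a stretch of at least 50 bases at 90% identity or more to a mitochondrial transcript, and they received 1127 counts in replicate 2 and 1195 in replicate 1, of which 1063 and 1110 belonged to Cep295, a nuclear gene with tRNA-like stretches.

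**Figure D2:**
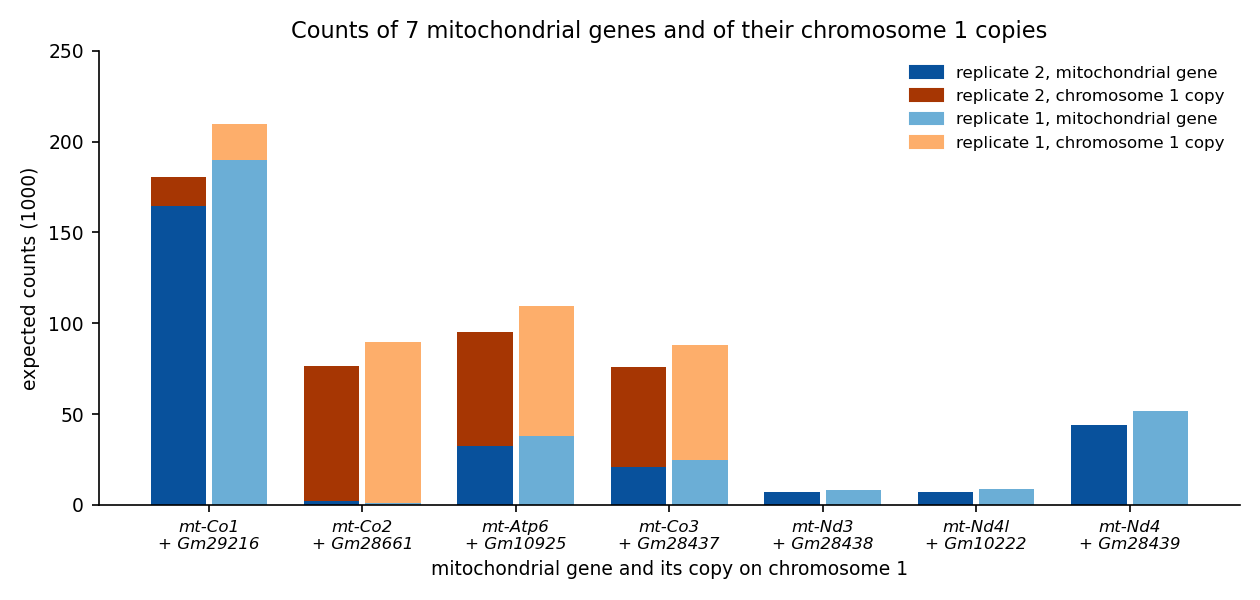
Expected counts (axis in units of 1000 counts) of 7 mitochondrial genes (blue) stacked with those of their chromosome 1 copies (orange to brown), with replicate 2 left of replicate 1 in each pair of bars. The copy holds most counts of the pair for mt-Co2, mt-Atp6 and mt-Co3 and next to none for mt-Nd3, mt-Nd4l and mt-Nd4.

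The authors' posterior mean counts, a second estimate deposited in the same table, divided the pairs differently. mt-Co2 had 11794 ± 2379 posterior mean counts in replicate 2 and 13343 ± 3126 in replicate 1, where the error is the authors' posterior SD. mt-Co3 had 32325 ± 3314 in replicate 2 and 41435 ± 3515 in replicate 1, and mt-Atp6 had 37165 ± 2546 and 43631 ± 2755. The share of mt-Co2 in its pair was 15.4% in replicate 2 and 14.9% in replicate 1. For mt-Rnr1, mt-Rnr2, mt-Nd1, mt-Atp8, mt-Nd5, mt-Nd6 and mt-Cytb the posterior SD was 0 in both libraries.

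A second transcript table, estimated by the authors from the reads rather than from an alignment, gave yet another division. It gave mt-Co2 10.7% of the pair in replicate 2 and 11.3% in replicate 1, mt-Co3 54.6% and 52.1%, and mt-Atp6 70.6% and 60.7%. Sums of the pairs also differed between the tables. mt-Co2 and Gm28661 together had 76475 counts in replicate 2 and 89594 in replicate 1 in the gene table, and 62331 and 71765 in the second table. mt-Atp6 and Gm10925 together had 95199 and 109625 counts in the gene table, and 59672 and 67328 in the second table, so this sum moved by more than mt-Atp6 itself (32597 and 37719 counts in the gene table, 42150 and 40870 in the second).

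Balance within a complex depended on this division. By TPM, mt-Co1 exceeded mt-Co2 by 33.6 times in replicate 2 and 60.3 times in replicate 1, the widest gap within any complex. By counts per kilobase of annotated length, without copies, it was 36.8 times in replicate 2 and 66.0 times in replicate 1. With the counts of each copy added and divided by the annotated length, the 3 messengers of complex IV came close together. mt-Co1 had 116888 counts per kilobase in replicate 2 and 135797 in replicate 1, mt-Co2 had 111806 and 130985, and mt-Co3 had 96700.3 and 112499. The highest then exceeded the lowest by 1.21 times in both libraries (log2 0.27 ± 0.001, SD, n = 2). For each gene the sum is the most that any division with its copy could give, and the mitochondrial row is 1 such division.

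Complex V moved the other way. By TPM, mt-Atp6 was 1.67 times mt-Atp8 in replicate 2 and 1.60 times in replicate 1. By counts per kilobase of annotated length, without the copy, it was 2.77 times in replicate 2 and 2.65 times in replicate 1. With Gm10925 added, mt-Atp6 took the place of mt-Co1 as the highest messenger in both libraries, with 139793 counts per kilobase in replicate 2 and 160977 in replicate 1, against 17279 and 20892 for mt-Atp8, a ratio of 8.09 in replicate 2 and 7.71 in replicate 1. mt-Atp8 and mt-Atp6 are known to share 1 RNA molecule. The annotated length of mt-Atp8 is 204 bases and its effective length 105 bases, so TPM and counts per kilobase differ most for this gene.

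In complex I, adding the copies changed next to nothing, since mt-Nd1 and mt-Nd6 have no copy in the block and the copies of mt-Nd3, mt-Nd4l and mt-Nd4 held 0 to 0.1 expected counts. The other estimates gave some of them reads: Gm10222 had 677 posterior mean counts in replicate 2 and 374 in replicate 1, and Gm28439 had 2706 and 4047 counts in the second table. mt-Nd1 had 51772 counts per kilobase in replicate 2 and 61014 in replicate 1, against 2867 and 3671 for mt-Nd6, a ratio of 18.1 in replicate 2 and 16.6 in replicate 1. mt-Cytb had 54362 counts per kilobase in replicate 2 and 63744 in replicate 1, close to mt-Nd1. With copies added, the messengers of complex IV and mt-Atp6 all lay above every messenger of complexes I and III in both libraries. The range over the 12 messengers of the heavy strand, from mt-Atp6 to mt-Atp8, was 8.09 times in replicate 2 and 7.71 times in replicate 1. It is of counts per kilobase of annotated length, a unit that sets the short mt-Atp8 lower than TPM does. These levels are a description of 2 libraries, and no test was made on them, since an exact test on 2 libraries cannot reach the threshold.

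**Figure D3:**
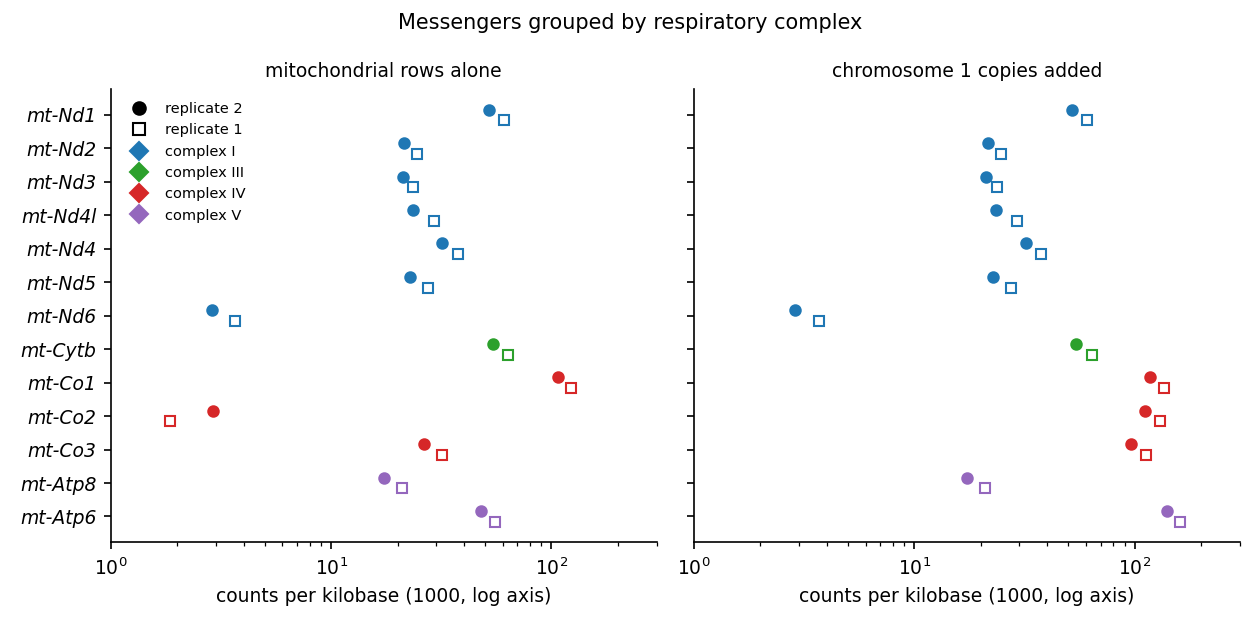
Expected counts per kilobase of annotated length (log axis, in units of 1000) for the 13 messengers, for the mitochondrial rows alone (left panel) and with chromosome 1 copies added (right panel), with replicate 2 as filled circles and replicate 1 as open squares. mt-Co1, mt-Co2 and mt-Co3 span from 2892 (mt-Co2) to 106490 (mt-Co1) counts per kilobase in replicate 2 in the left panel and lie within 1.21 times of each other in the right panel.

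The 22 tRNAs were listed at 0 counts in both libraries, in both kinds of table. They are mt-Tf, mt-Tv, mt-Tl1, mt-Ti, mt-Tq, mt-Tm, mt-Tw, mt-Ta, mt-Tn, mt-Tc, mt-Ty, mt-Ts1, mt-Td, mt-Tk, mt-Tg, mt-Tr, mt-Th, mt-Ts2, mt-Tl2, mt-Te, mt-Tt and mt-Tp. They are 59 to 75 bases long, and 14 lie on the plus strand and 8 on the minus strand. In the gene table, effective length was 99 bases shorter than annotated length, which left 0 for every tRNA. None of the 2398 genes with an effective length of 0 held a count, so these zeros give no level and no upper limit for tRNA abundance. In the second table the tRNAs had effective lengths of 22.24 to 25.95 bases in replicate 2 and 21.04 to 24.25 bases in replicate 1, and 0 counts. A count of 0 there allows up to 0.0921 counts per 1000000 gene counts (CPM) in replicate 2 and 0.0888 CPM in replicate 1, for counting error only and for fragments that the table could assign.

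Short messengers were also listed low in the second table. mt-Atp8 (204 bases) had 0 counts in both libraries there, against 3525 counts in replicate 2 and 4262 in replicate 1 in the gene table. mt-Nd4l (297 bases) had 5 counts in replicate 2 and 16 in replicate 1, with exact 95% Poisson intervals of 1.62 to 11.7 and 9.15 to 26.0 counts. mt-Nd3 (348 bases) had 34 counts in replicate 2 (23.5 to 47.5) and 1355 in replicate 1 (1284 to 1429), so its intervals stood far apart, while in the gene table it had 7373 and 8216 counts. Its log2 ratio of replicate 2 over replicate 1 was -4.78 in the second table and -0.15 in the gene table. mt-Nd6 had 676 counts in replicate 2 and 1163 in replicate 1 there, a log2 ratio of -0.79 against -0.35 in the gene table. The intervals cover counting error only. Effective lengths in the second table were 47.4 bases in replicate 2 and 43.0 in replicate 1 for mt-Atp8, 67.5 and 62.7 for mt-Nd4l, and 83.7 and 79.2 for mt-Nd3. The 3 messengers are the shortest of the 13.

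The difference between the libraries was small and, but for mt-Co2, in the same direction. All 15 mitochondrial genes with counts differed in the exact binomial test (two-sided, expected counts rounded to whole numbers), adjusted by the Benjamini-Hochberg method over the 18887 genes with 10 counts or more in a library. Of them, 14 were called lower in replicate 2 and 1, mt-Co2, higher. Over all genes, 20.3% were called, 11.4% lower in replicate 2 and 8.88% higher. The median log2 ratio of replicate 2 over replicate 1 was -0.24 over the 15 genes and 0.00 over all genes tested. The ratio is of CPM + 0.5 with library sizes from edgeR's TMM scaling. The test takes counting error alone and compares these libraries, not mice, and at such counts very small differences pass it.

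Both rRNAs were lower in replicate 2 by nearly the same amount. mt-Rnr2 had 1226600 counts in replicate 2 and 1430567 in replicate 1, a log2 ratio of -0.22. mt-Rnr1 had 434124 counts in replicate 2 and 515608 in replicate 1, a log2 ratio of -0.25. Counting SEs of these ratios were 0.002 and 0.003.

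All messengers but mt-Co2 were shifted in the same direction as the rRNAs, and whether the amounts differed was not tested. mt-Nd6 was the lowest, with 1488 counts in replicate 2 and 1905 in replicate 1 (log2 ratio -0.35 ± 0.05, counting SE; adjusted p = 3.531e-11, exact binomial test). mt-Nd4l followed at -0.31 ± 0.02 and mt-Atp8 at -0.27 ± 0.03, with adjusted p = 1.044e-38 and 4.167e-15. mt-Nd3 changed least, with a log2 ratio of -0.15 ± 0.02 (adjusted p = 6.311e-10, exact binomial test). The other complex I messengers were mt-Nd1 at -0.24, mt-Nd2 at -0.19, mt-Nd4 at -0.24 and mt-Nd5 at -0.27, and mt-Cytb of complex III lay at -0.23. mt-Co1 at -0.21, mt-Co3 at -0.27 and mt-Atp6 at -0.21 completed the 14 genes lower in replicate 2, whose ratios spanned from -0.35 to -0.15.

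mt-Co2 stood apart in the expected counts of the gene table. Its log2 ratio was 0.63 ± 0.05 (adjusted p = 3.077e-33, exact binomial test), from 1978 counts in replicate 2 and 1274 in replicate 1. This SE and this test leave out the error of dividing reads between mt-Co2 and Gm28661. The authors' posterior SD for mt-Co2 was 2379 counts in replicate 2 and 3126 in replicate 1, more than its expected counts, so the p-value does not measure that error. With Gm28661 added, the pair had a log2 ratio of -0.23, and in the second table mt-Co2 alone had -0.30. From posterior mean counts it was -0.18. With the 7 copies added, 15 of the 15 genes were called lower in replicate 2, with ratios from -0.35 to -0.15 and a background of 11.3% of 18883 genes called lower. The copies themselves had log2 ratios of -0.24 (Gm28661), -0.20 (Gm10925), -0.20 (Gm28437) and -0.30 (Gm29216), and all 4 were called lower.

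By complex, the medians with copies added were -0.24 for complex I, -0.23 for complex III, -0.22 for complex IV, -0.24 for complex V and -0.23 for the rRNAs. A difference between complexes was not tested. With library sizes from the total gene counts or from the spike-ins, the median over the 15 genes was -0.18 in both cases. The median over all genes tested was then 0.057 with total counts and 0.051 with spike-ins. Of the 15 genes, 14 were again called lower, beside 6.06% and 6.51% of all genes. If a spread between libraries is assumed (edgeR's exact test with a dispersion of 0.01), 0 of the 15 genes were called, 1 (mt-Co2) had an unadjusted p under 0.05, and 0.964% of all genes were called. The calls above therefore rest on counting error as the only error. Myelin, striatal, choroid plexus, erythroid and nuclear-retained RNAs differed between the same libraries. With TMM sizes, so did part of the markers of excitatory neurons, astrocytes and microglia, whose medians of -0.13 to -0.16 were below 0 as well. With sizes from total gene counts or spike-ins, these medians were -0.07 to -0.11, and 0 microglia markers were called. The part of these cells and tissues in the mitochondrial difference was not tested. In bulk tissue, fewer cells of a type rich in mitochondria and less mitochondrial RNA per cell cannot be told apart.

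**Figure D4:**
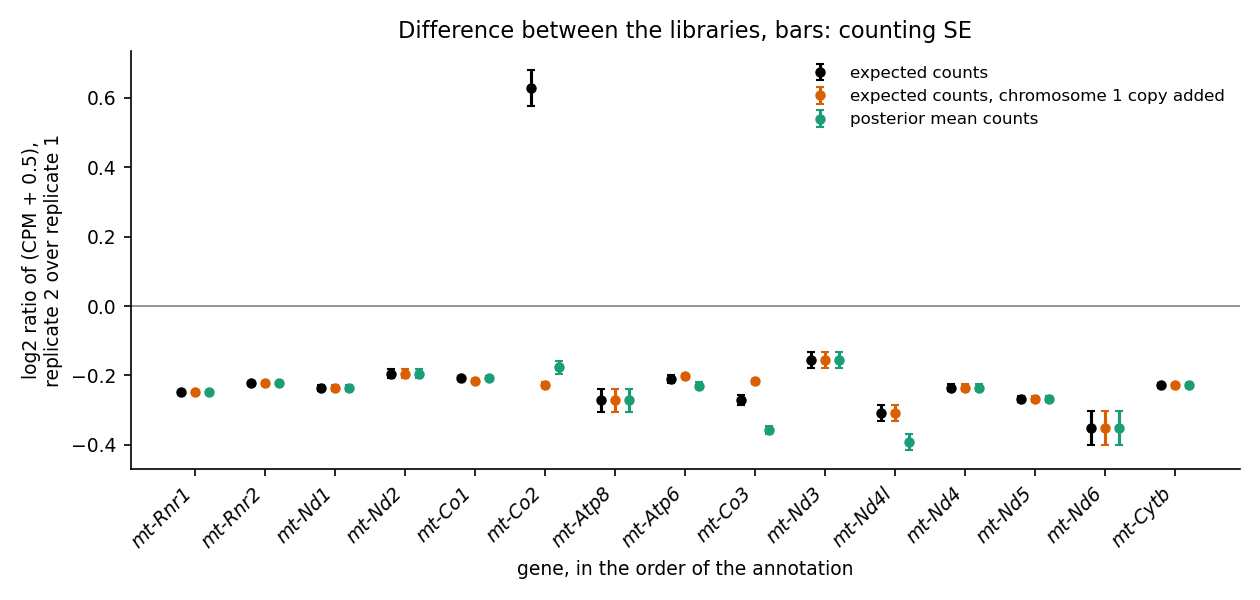
Log2 ratio of (CPM + 0.5), replicate 2 over replicate 1, for the 15 genes with counts, from expected counts (black), with the chromosome 1 copy added (orange) and from posterior mean counts (green); bars are counting SEs, which leave out the error of dividing reads among copies. All values lie between -0.40 and -0.15 but mt-Co2 from expected counts, at 0.63.

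Nuclear genes for the same complexes were expressed at lower levels per gene. In complex I the median was 1441 TPM in replicate 2 and 1538 TPM in replicate 1 over the 7 mitochondrial messengers, and 115 and 119 TPM over 7 listed nuclear subunits, a ratio of 12.7 (log2 3.67 ± 0.04, SD, n = 2). In complex III mt-Cytb was 26.2 times the median of 5 nuclear subunits (112 TPM in replicate 2 and 122 TPM in replicate 1). In complex IV, where the division of reads matters most, the ratio was 4.60, against 6 nuclear subunits at a median of 339 TPM in replicate 2 and 346 TPM in replicate 1. In complex V the ratio was 9.55, against 8 nuclear subunits at 240 and 245 TPM. The medians of complexes IV and V rest on rows that held only part of the reads shared with a copy. mt-Co3, the median of complex IV, held 27.2% of its pair in replicate 2 and 28.3% in replicate 1. For mt-Atp6 it was 34.2% and 34.4%. Ratios to nuclear subunits were not computed with copies added, so they do not rank the complexes. TPM of both genomes share 1 scale, but reads of polyadenylated, cytosolic and mitochondrial RNA were not distinguished.

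The highest nuclear subunits were Atp5b, the catalytic beta subunit of ATP synthase (859 ± 7.91 TPM, SD, n = 2), and Cox4i1 of complex IV (566 ± 10.01). They lay below most mitochondrial messengers and above mt-Nd6 and, by its own row without the copy, mt-Co2. Cox6a1 of complex IV had 414 ± 11.6 TPM and Atp5a1, the alpha subunit of ATP synthase, 387 ± 12.3 TPM. Ndufb8 led complex I at 193 ± 5.34 TPM, Uqcrc1 and Uqcrb led complex III at 193 ± 1.92 and 128 ± 4.86 TPM, and Sdha and Sdhc led complex II, which has no mitochondrial subunit, at 132 ± 6.75 and 103 ± 0.834 TPM.

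**Figure D5:**
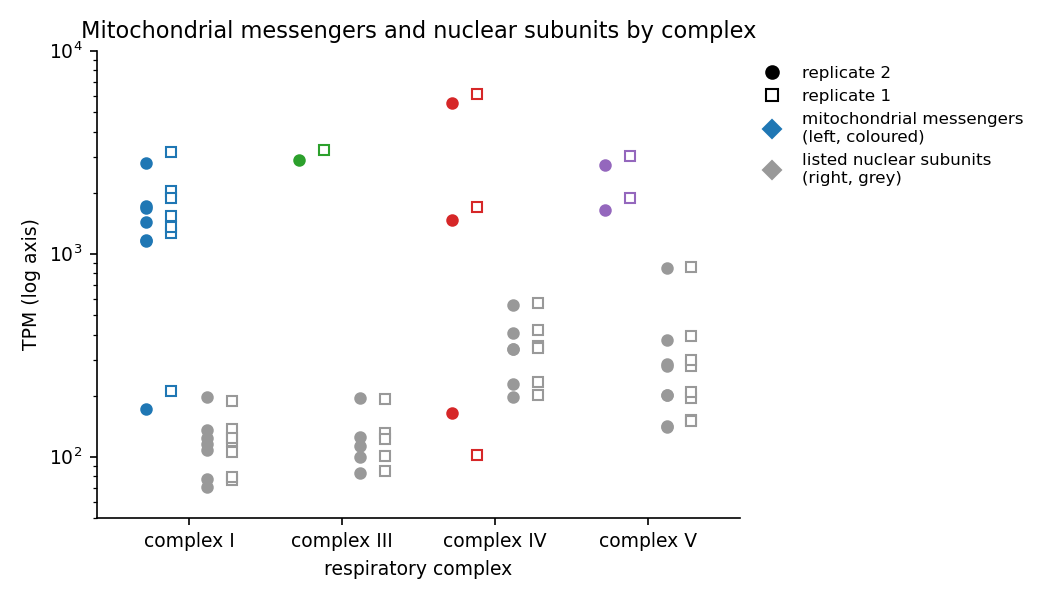
TPM (log axis) of mitochondrial messengers (coloured, left) and listed nuclear subunits (grey, right) of 4 respiratory complexes, with replicate 2 as filled circles left of replicate 1 as open squares. Chromosome 1 copies are left out. Mitochondrial messengers lie above the nuclear subunits of their complex except mt-Nd6 (172 and 211 TPM), which lies near the highest nuclear subunit of complex I, and mt-Co2 (165 and 101 TPM), which lies below all those of complex IV.

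Of 30 listed nuclear subunits of complexes I to V, 0 were called higher and 14 lower in replicate 2, against 8.88% and 11.4% of all genes tested, and 16 were not called. All 30 log2 ratios were below 0, with a median of -0.10 and a range from -0.16 to -0.001. This depended on the scaling: with library sizes from total gene counts or from spike-ins, 23 of 30 ratios were below 0 and 5 or 6 were called lower, beside 6.06% or 6.51% of all genes. With TMM sizes the called genes were 2 of 7 in complex I, 2 of 4 in complex II, 1 of 5 in complex III, 4 of 6 in complex IV and 5 of 8 in complex V. Among the largest differences were Cox7a2 at -0.16 ± 0.04, Uqcrc2 at -0.16 ± 0.03, Atp5f1 at -0.14 ± 0.03, Sdhc at -0.14 ± 0.05, Ndufs1 at -0.14 ± 0.03, Sdha at -0.14 ± 0.02, Atp5c1 at -0.14 ± 0.04 and Cox6a1 at -0.12 ± 0.03 (counting SE). Whether mitochondrial messengers and nuclear subunits shifted by different amounts was not tested.

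Genes for the expression of the mitochondrial genome were low and mostly not called. At lower counts the test needs a larger shift for a call, so call rates of lists at unlike levels are not alike. Counting SEs were 0.07 for Polrmt and 0.08 for Tfam, against 0.01 for Atp5b and 0.02 for Cox4i1, the highest nuclear subunits. Over 60 such genes the median level was 9.68 TPM, 2 were called higher in replicate 2 and 1 lower, beside 8.88% and 11.4% of all genes tested, and the median log2 ratio was 0.04. Of 9 genes for mitochondrial transcription, 0 were called. Polrmt, the mitochondrial RNA polymerase, had 20.7 TPM in replicate 2 and 14.6 TPM in replicate 1. Tfam, which packages and activates the genome, had 18.9 and 16.2 TPM. The test rests on counts, which were 898 and 797 for Polrmt and 602 and 626 for Tfam. With TMM sizes their log2 ratios were 0.17 and -0.05, so the counts did not match the TPM gaps of these genes. Of 8 genes for replication and upkeep, Ssbp1, which binds single-stranded DNA, was called higher (log2 ratio 0.37 ± 0.11, adjusted p = 0.00250, exact binomial test) and was also second in level at 13.6 ± 2.11 TPM, after Polg, the DNA polymerase, at 40.7 ± 2.73 TPM (SD, n = 2).

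Of 25 genes for processing and stability of mitochondrial RNA, Pnpt1, part of the RNA degradation machinery, was called higher (log2 ratio 0.25 ± 0.09) and Grsf1, which binds RNA in mitochondrial granules, lower (-0.15 ± 0.04). Fastk and Rexo2, a regulator of mt-Nd6 messenger and a nuclease for short RNAs, were the highest of this list at 53.5 ± 2.17 and 48.6 ± 3.42 TPM (SD, n = 2). Of 19 genes for ribosome assembly and translation, 0 were called, and the highest were Dhx30, an RNA helicase, at 72.6 ± 3.00 TPM and Tufm, an elongation factor, at 42.1 ± 0.785 TPM. With library sizes from total gene counts or from spike-ins, Grsf1 was not called, and 1 of 9 transcription, 3 of 8 replication, 1 of 25 processing and 2 of 19 translation genes were called higher, beside 14.5% or 13.6% of all genes.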

How the data were processed

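For each library the authors made a gene table and a first transcript table by aligning to the transcriptome, and a second transcript table directly from the reads (mm10, GENCODE M21, per the text files deposited with them). Tools and strand settings: not given in the sources used here. The deposited expected counts (and posterior mean counts) are the authors' unnormalised estimates per gene, and the deposited TPM values were scaled by the authors to a sum of 1000000 over all rows. Gene symbols and coordinates came from GENCODE M21, which matched all 55536 gene identifiers; second-table values were summed per gene. Spike-ins (96 rows) and 26249 rows that name no gene were left out of gene totals. The rule for members uses symbols alone, but the topic, the nuclear lists and the marker lists were chosen with earlier results of these data known.

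Copies were found with blastn 2.17.0 against the GENCODE M21 transcripts (90% identity, 50 bases). Libraries were compared with a two-sided exact binomial test (scipy 1.17.1) on rounded expected counts, with TMM sizes from edgeR 4.0.16 and Benjamini-Hochberg adjustment, called under 0.05, for genes with 10 counts or more in a library. It was tested on simulated counts with counting error alone. Such counts cannot show how the test behaves under a spread between libraries or an error in dividing reads among copies. Alternatives used total counts, spike-ins, DESeq2 1.42.0 size factors, TMM without mitochondrial genes, filters of 1 and 50 counts, the second table, copies added, and edgeR with a dispersion of 0.01; posterior mean counts were added after seeing the data. All mitochondrial genes are named; of each nuclear list, the 2 with the highest mean TPM and up to 2 called genes with the largest ratio, save 1 gene that is not reported here. Of the list for RNA processing, Prorp was not matched. Of 2 identifiers named Atp5o, only the one above the count minimum was used.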

Additional observations from a re-analysis of the deposited data

How the results depend on the processing

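Of 149 log2 ratios of single genes under 10 alternatives, 129 kept their direction and call, 16 kept the direction and lost the call, 15 of these under edgeR with a dispersion of 0.01, and 4 reversed. The reversed ones were mt-Co2 at -0.30 in the second table, -0.23 with copies added and -0.18 from posterior mean counts, and mt-Atp6 at 0.027 in the second table. Genes called lower numbered 0 with that dispersion, and genes called higher numbered 0 with it, with copies added and from posterior mean counts. With copies added, mitochondrial genes held 7.72% and messengers 2.21% of gene counts, against 7.03% and 1.52% without. On the log2 scale the highest over the lowest messenger of complex I was 3.97 by TPM, 4.11 by counts per kilobase, with or without copies, and 9.05 in the second table. For complex IV it was 5.49 by TPM, 2.82 in the second table, 0.27 with copies added and 2.51 from posterior mean counts. For complex V it was 0.71 by TPM, 1.44 by counts per kilobase, 2.98 with copies added and 0.91 from posterior mean counts, and it could not be computed in the second table, where mt-Atp8 is listed at 0. mt-Rnr2 over mt-Rnr1 was 0.69 by TPM, 0.76 by counts per kilobase, with or without copies, and 0.90 in the second table. The rRNA over the messenger sum was 1.40 by TPM, 1.44 in the second table, 1.52 by counts per kilobase, 0.79 with copies added and 1.29 from posterior mean counts. mt-Nd6 over the median of the heavy strand messengers was -3.21 by TPM, -2.98 in the second table, -3.09 by counts per kilobase and -3.81 with copies added. Causes of these changes were not tested beyond the construction of each setting. No paired analysis was possible because there is 1 group. Left at 1 library, the mitochondrial share was 6.62% or 7.44% and the complex IV ratio 5.07 or 5.91.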
